A study of Homo sapiens with 18 samples.

Results

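The 6 Sprouty and SPRED genes SPRY1, SPRY2, SPRY4, SPRED1, SPRED2 and SPRED3 were followed across all 6 groups of the study. They were taken by Ensembl ID through their symbols, and are 6 of the 60658 genes in the deposited table. The rule that picked their rows used no measured value, but the members were chosen with earlier results of these data known. The tested line was B11, 1 subclone of the human acute myeloid leukaemia line THP1, whose label gives heterozygous NRAS-G12V. Its cells carry a lentiviral, doxycycline-inducible NRAS with the G12V mutation that CRISPR cannot cut, with GFP, and a vector with Cas9, puromycin resistance and a pair of guide RNAs flanking the start codon of the native NRAS gene. The parental THP1 cells, labelled heterozygous NRAS-G12D, carry none of these vectors. B11 was grown at 0, 1 or 10 ug/ml doxycycline, and so was THP1, for 5 days, with 3 plates per line and dose and 18 libraries in all. The 9 plates of each line came from 1 culture, so p-values measure the spread between plates and not between independent clones or cultures. By design, B11 without doxycycline is the clone with its inducible NRAS not switched on, and the doxycycline-treated THP1 plates show what the drug does without a transgene.

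Sprouty and SPRED proteins are inhibitors of the pathway from receptor tyrosine kinases through RAS to the kinase ERK. Their own transcription is raised by ERK signalling, so they act in negative feedback. Sprouty proteins bind adaptors and enzymes such as GRB2 and the ubiquitin ligase CBL, and SPRED proteins bring the RAS GTPase-activating protein neurofibromin, encoded by NF1, to the membrane, where it switches RAS off.

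In GRCh38 coordinates with GENCODE 29 gene models, SPRY1 lies at chr4:123396795-123403760 on the plus strand, SPRY2 at chr13:80335976-80340951 on the minus strand, SPRY4 at chr5:142310427-142326455 on the minus strand, SPRED1 at chr15:38252326-38357249 on the plus strand, SPRED2 at chr2:65310851-65432637 on the minus strand and SPRED3 at chr19:38388421-38399587 on the plus strand. SPRY4 overlaps 3 genes on the opposite strand, SPRY4-AS1 among them, and SPRED2 overlaps 1 intronic RNA gene on its own strand, with no shared exon in any of these cases. DNA upstream of the RefSeq start is printed for the 4 members whose levels were high enough to be tested. The stretches come from the RefSeq table on GRCh38.p14, are at most 250 bases, and leave out any base inside a GENCODE exon. They read 5′ to 3′ on the strand of the gene, and capitals mark matches to the motifs searched on both strands.
SPRY1: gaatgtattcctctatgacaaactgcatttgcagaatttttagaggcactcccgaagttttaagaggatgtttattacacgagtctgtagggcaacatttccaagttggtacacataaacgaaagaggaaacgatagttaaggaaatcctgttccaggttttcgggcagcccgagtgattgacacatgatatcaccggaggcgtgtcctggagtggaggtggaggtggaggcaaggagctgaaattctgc
SPRY2: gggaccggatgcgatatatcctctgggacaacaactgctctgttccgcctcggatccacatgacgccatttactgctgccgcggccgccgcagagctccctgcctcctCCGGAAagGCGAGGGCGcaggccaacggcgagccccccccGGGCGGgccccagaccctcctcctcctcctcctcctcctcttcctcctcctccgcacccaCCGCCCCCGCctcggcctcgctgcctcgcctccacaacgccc
SPRY4: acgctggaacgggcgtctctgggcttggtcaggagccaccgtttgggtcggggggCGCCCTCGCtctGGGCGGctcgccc
SPRED2: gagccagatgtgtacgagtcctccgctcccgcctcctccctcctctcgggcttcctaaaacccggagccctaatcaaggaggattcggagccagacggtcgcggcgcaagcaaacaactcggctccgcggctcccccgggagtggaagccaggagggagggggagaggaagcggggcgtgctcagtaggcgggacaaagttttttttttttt

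The stretch of SPRY1 is chr4:123396545-123396794 on the plus strand, that of SPRY2 chr13:80341127-80341376, that of SPRY4 chr5:142324418-142324497 and that of SPRED2 chr2:65432638-65432849, the last 3 on the minus strand. For SPRY4 only 80 bases were kept, and for SPRED2 212 bases, without the 170 and 38 bases next to the RefSeq start. The SPRY4 stretch is therefore not directly at that start, and it lies inside the gene's GENCODE span, outside its exons. The motifs were ETS (CCGGAA), EGR (GCGNGGGCG), GC box (GGGCGG), AP-1 (TGANTCA), CRE (TGACGTCA) and the CArG box of serum response factor. The SPRY2 stretch held 1 ETS, 2 EGR and 2 GC box matches, and 1 EGR match overlapped 1 GC box match. The SPRY4 stretch held 1 EGR and 1 GC box match. SPRY1 and SPRED2 held no match in these windows. Over the same 250 bases, 14.5% of 35116 RefSeq promoter windows held an ETS match, 8.41% an EGR match and 42.6% a GC box match. Over the 80 bases used for SPRY4, 1.66% held an EGR match and 13.9% a GC box match. These matches describe letters and are not evidence of binding.

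Levels are in FPKM, a fragment count per transcript length and library depth, so that they can be compared between genes. Depth per library was estimated at 12.2 to 17.6 M fragments. One unnamed ID took 6.51% and 3.76% of the summed FPKM in plates B and C of the 1 ug/ml B11 group and next to nothing in every other library, and calls of the members lost without these plates are named with the value left. That fit leaves 1 library, plate A, in the group, whose spread is taken to be like that of the other groups. NRAS, the targeted gene, averaged 20.9 ± 1.09, 23.8 ± 0.579 and 27.96 ± 0.219 FPKM in B11 at 0, 1 and 10 ug/ml and 23.3 ± 0.348, 23.4 ± 1.97 and 24.2 ± 0.505 FPKM in THP1 at the same doses (SD, n = 3 each). Its gene-level value sums native and introduced sequence and so does not check the edit. The 12 monocytic markers summed to 4445 to 5681 FPKM in untreated B11, to 1489 to 1848 FPKM in the treated B11 libraries and to 1537 to 1978 FPKM in THP1. Such a sum weighs abundant genes most, and single markers moved both ways. By limma, 6 of the 12 were higher and 3 lower in untreated B11 than in untreated THP1 (23.5% and 23.6% of all genes). At 1 against 0 ug/ml in B11, 3 rose and 7 fell (19.8% and 17.3% of all genes). CD14, ITGAM and FCGR1A rose, by 1.94, 2.76 and 1.64 in log2(FPKM + 1). Among the 7 that fell, LYZ, CD68 and CD4 differed by -2.62, -1.24 and -0.94, and the median of the list was -0.46. All of these markers were named after their values were seen. The part of these markers in the results below was not tested. Of 16 markers of other lineages, 4 averaged at least 1 FPKM in untreated B11 and 7 in untreated THP1. Between these groups 7 were tested, with a median difference of -0.50 in log2(FPKM + 1). NCAM1 and PECAM1 were called higher in B11 by limma and 0 lower, where 23.5% of all genes were higher and 23.6% lower. The T cell, B cell and red cell markers CD3E, MS4A1 and HBB were listed at 0 in every group.

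SPRY2 and SPRED2 were the abundant members in every group, and both were lowest in untreated B11. SPRY2, which acts on receptor signalling through GRB2 and CBL, had 5.24, 5.39 and 4.28 FPKM in B11 at 0 ug/ml, 16.3, 16.8 and 14.7 FPKM at 1 ug/ml and 11.8, 10.3 and 11.8 FPKM at 10 ug/ml (libraries A, B and C). In THP1 it had 13.5, 13.8 and 13.3 FPKM at 0 ug/ml, 12.5, 13.3 and 11.2 FPKM at 1 ug/ml and 12.5, 13.3 and 12.99 FPKM at 10 ug/ml. The 3 untreated B11 libraries lay below all 15 others, and the 1 ug/ml B11 libraries lay above all others.

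SPRED2, a member that recruits neurofibromin to RAS, had 3.35, 6.55 and 5.29 FPKM in B11 at 0 ug/ml, 13.6, 14.6 and 15.6 FPKM at 1 ug/ml and 13.6, 12.7 and 17.3 FPKM at 10 ug/ml. In THP1 it had 21.9, 14.8 and 19.0 FPKM at 0 ug/ml, 17.5, 19.0 and 15.1 FPKM at 1 ug/ml and 15.005, 15.02 and 12.5 FPKM at 10 ug/ml. Untreated B11 again lay below every other library, whereas the other 5 groups each overlapped at least 1 neighbour.

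SPRY4, a Sprouty that also binds the kinase TESK1, was near or at 0 in untreated B11, with 0.0649, 0 and 0 FPKM. It had 0.726, 0.931 and 0.804 FPKM in B11 at 1 ug/ml and 1.29, 0.894 and 1.57 FPKM at 10 ug/ml. In THP1 the values were 1.44, 0.965 and 1.45 FPKM at 0 ug/ml, 0.993, 1.98 and 0.537 FPKM at 1 ug/ml and 0.962, 1.39 and 1.48 FPKM at 10 ug/ml. The treated B11 libraries lay within the THP1 range of 0.537 to 1.98 FPKM.

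SPRY1, another Sprouty inhibitor of receptor signalling, was listed at 0 in all 3 untreated B11 libraries. It had 0.280, 0.175 and 0.371 FPKM in B11 at 1 ug/ml and 0.949, 0.898 and 1.16 FPKM at 10 ug/ml, so that the 3 doses did not overlap. In THP1 it varied more, with 1.11, 0.939 and 0.584 FPKM at 0 ug/ml, 0.274, 1.11 and 0.631 FPKM at 1 ug/ml and 1.009, 0.180 and 0.479 FPKM at 10 ug/ml. A listed 0 is rare at higher levels in this table: 0 of 5498 protein-coding genes with a median of at least 20 FPKM had a 0 in any library, against 85 of 904 with a median of 1 to 2 FPKM. SPRY1 reached 1 FPKM in only 4 of 18 libraries, so its median lay below that band, for which no share is given. In untreated B11, 3 fragments of SPRY1 would be an estimated 0.0815 to 0.0944 FPKM.

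SPRED1, the family member lost in Legius syndrome, was low and uneven between plates. In B11 it had 0.442, 0.0108 and 0.0106 FPKM at 0 ug/ml, 0.465, 0.527 and 0.0890 FPKM at 1 ug/ml and 0.865, 0.0674 and 0.691 FPKM at 10 ug/ml. In THP1 it had 1.25, 0.0225 and 0.190 FPKM at 0 ug/ml, 0.0672, 0 and 0.0794 FPKM at 1 ug/ml and 0, 0.0104 and 0.00829 FPKM at 10 ug/ml. Values within a group spread widely, and its GENCODE transcripts run from 527 to 7780 bases, over which a per-length value can shift. SPRED3, whose KIT-binding domain is not functional, stayed at or below 0.418 FPKM in all 18 libraries, was listed at 0 in 4 of them, and was at 0 in all 3 THP1 libraries at 1 ug/ml.

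**Figure D1:**
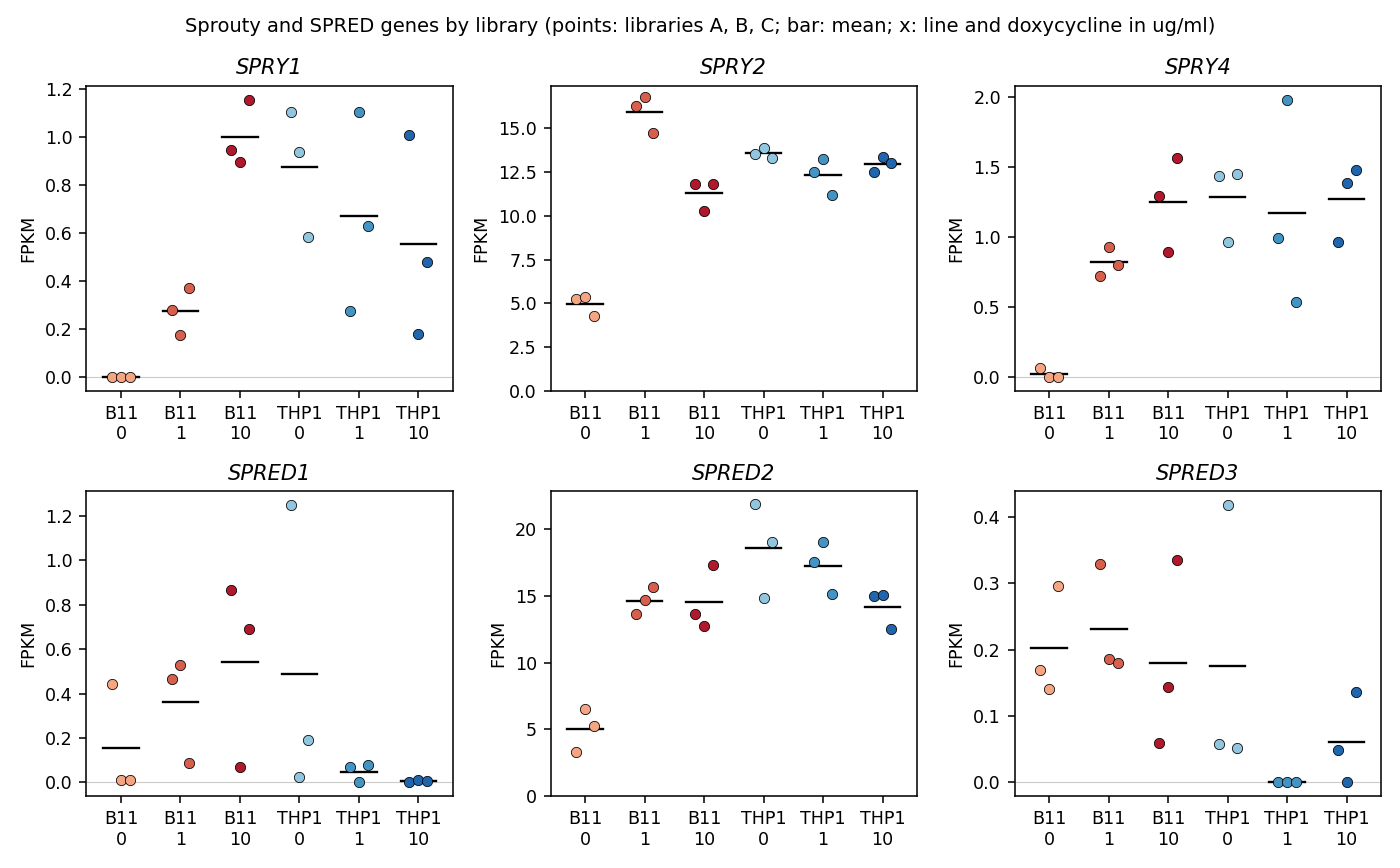
FPKM of each of the 6 genes in each library (points), with the group mean as a bar, for B11 and THP1 at 0, 1 and 10 ug/ml doxycycline. SPRY2 and SPRED2 lie at 4.28 FPKM or more and 3.35 FPKM or more in every library, with untreated B11 lowest, and SPRY1, SPRY4, SPRED1 and SPRED3 stay below 2 FPKM.

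A gene was tested where 3 or more of the 18 libraries reached 1 FPKM, which held for 17555 genes. SPRY2 and SPRED2 reached 1 FPKM in all 18 libraries. SPRY4 did so in 7 libraries and SPRY1 in 4, none of them untreated B11, so both passed through the groups in which they were high. SPRED1, with 1 such library, and SPRED3, with 0, were not tested. All differences below are in log2(FPKM + 1), which understates the change of low genes, and the adjusted p is from limma with Benjamini-Hochberg adjustment over all genes tested.

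Against untreated THP1, untreated B11 was lower in SPRY1, SPRY2, SPRY4 and SPRED2, the 4 members tested, in a comparison that called 47.1% of all genes, 23.5% higher and 23.6% lower. SPRY2 averaged 4.97 ± 0.602 FPKM in untreated B11 and 13.5 ± 0.290 FPKM in untreated THP1 (SD, n = 3 each), a ratio of 0.367 and a difference of -1.29 (SE 0.10, adjusted p = 6.77e-08). SPRED2 averaged 5.06 ± 1.61 and 18.6 ± 3.54 FPKM in the same groups, a ratio of 0.272 and a difference of -1.71 (SE 0.19, adjusted p = 2.69e-06). The difference was -1.15 for SPRY4 (SE 0.21, adjusted p = 0.000416) and -0.90 for SPRY1 (SE 0.22, adjusted p = 0.00300), genes at or near 0 in untreated B11, for which the size depends on the pseudocount. In SPRY2 and SPRED2, the 3 B11 libraries lay below the 3 THP1 libraries. SPRY1 and SPRY4 also lay below, but they passed the filter only through groups other than untreated B11. The share of all genes separated in this way is not given. In these bulk samples, fewer cells that express a gene and less of its RNA per cell cannot be told apart.

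In B11, SPRY1, SPRY2, SPRY4 and SPRED2 were higher with 10 ug/ml doxycycline than without it, where 42.8% of all genes were called, 21.6% higher and 21.3% lower. SPRY2 averaged 11.3 ± 0.886 FPKM in treated and 4.97 ± 0.602 FPKM in untreated B11 (SD, n = 3 each), 2.27-fold higher (log2 difference 1.05, SE 0.10, adjusted p = 7.78e-07). SPRED2 averaged 14.6 ± 2.42 FPKM in treated and 5.06 ± 1.61 FPKM in untreated B11, 2.88-fold higher (log2 difference 1.38, SE 0.19, adjusted p = 2.75e-05). SPRY4 differed by 1.13 (SE 0.21, adjusted p = 0.000572) and SPRY1 by 1.00 (SE 0.22, adjusted p = 0.00155). The treated libraries lay above the untreated ones in SPRY2 and SPRED2. They also did in SPRY1 and SPRY4, which passed the filter only through groups other than untreated B11. No share of all genes with such a separation is given.

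At 1 ug/ml against 0 ug/ml in B11, SPRY2, SPRED2 and SPRY4 rose, in a comparison that called 37.1% of genes, 19.8% higher and 17.3% lower. SPRY2 averaged 15.9 ± 1.08 FPKM in treated and 4.97 ± 0.602 FPKM in untreated B11, 3.20-fold higher (log2 difference 1.51, SE 0.10, adjusted p = 1.83e-08). SPRED2 averaged 14.6 ± 1.012 FPKM in treated and 5.06 ± 1.61 FPKM in untreated B11, 2.89-fold higher (log2 difference 1.40, SE 0.19, adjusted p = 3.06e-05). SPRY4 differed by 0.83 (SE 0.21, adjusted p = 0.00664), but by 0.76 with an adjusted p of 0.120 without plates B and C of the 1 ug/ml B11 group, where 1 library stood for that dose. In that same reduced fit SPRY2 differed by 1.54 (adjusted p = 1.04e-05) and SPRED2 by 1.30 (adjusted p = 0.00499). SPRY1, at 0.175 to 0.371 FPKM in treated B11 against 0 in untreated B11, gave 0.35 (SE 0.22, adjusted p = 0.231).

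The step between the 2 doses in B11 was uneven among the members. SPRY2 was lower at 10 than at 1 ug/ml, 11.3 ± 0.886 against 15.9 ± 1.08 FPKM, a ratio of 0.710 with no overlap of libraries (log2 difference -0.46, SE 0.10, adjusted p = 0.00717). It was the single member called, where 12.8% of all genes were called, 5.69% higher and 7.12% lower, and its difference was -0.49 with an adjusted p of 0.101 without plates B and C of the 1 ug/ml B11 group, which leaves 1 library at that dose. SPRED2 differed by -0.01 (95% interval -0.42 to 0.39, adjusted p = 0.982). SPRY4 differed by 0.30 (SE 0.21, adjusted p = 0.427). SPRY1 differed by 0.65 (SE 0.22, adjusted p = 0.0622) in the opposite direction to SPRY2, with all 3 libraries at 10 ug/ml above all 3 at 1 ug/ml. Its adjusted p was 0.0441 to 0.0487 when library A or B of THP1 at 1 or 10 ug/ml was left out.

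**Figure D2:**
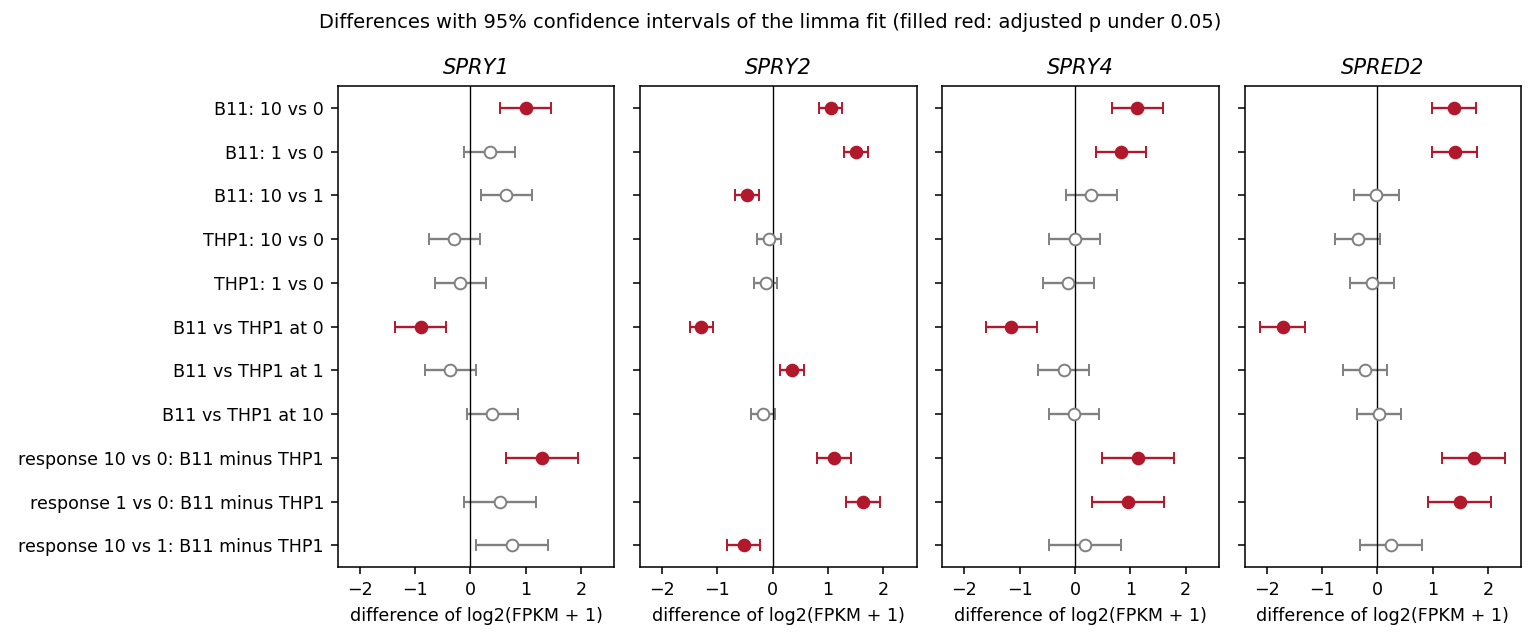
Differences in log2(FPKM + 1) with 95% intervals for the 4 members tested, 1 row per comparison, filled where limma's adjusted p passed. The intervals of SPRY2 and SPRED2 lie above 0 for both doses against untreated B11 and below 0 for untreated B11 against untreated THP1, and the 2 THP1 dose comparisons shown span 0.

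In THP1, which has no inducible NRAS, none of the 4 members was called at either dose by limma, and 0 had an unadjusted p under 0.05. At 10 against 0 ug/ml, where 1.02% of all genes were called, 0.0968% higher and 0.923% lower, SPRED2 averaged 14.2 ± 1.47 FPKM in treated and 18.6 ± 3.54 FPKM in untreated THP1 (log2 difference -0.36, 95% interval -0.76 to 0.05, adjusted p = 0.548). SPRY2 differed by -0.06 (95% interval -0.28 to 0.15), SPRY4 by -0.01 and SPRY1 by -0.29. At 1 against 0 ug/ml, where 0.0114% of genes were called, 0.0057% in each direction, the differences ran from -0.19 for SPRY1 to -0.09 for SPRED2. At 10 against 1 ug/ml, where 0.296% were called, 0.0513% higher and 0.245% lower, they ran from -0.26 for SPRED2 to 0.12 for SPRY4.

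The response of B11 to 10 ug/ml exceeded that of THP1 in SPRY1, SPRY2, SPRY4 and SPRED2, tested as an interaction that called 29.8% of all genes, 16% with a higher and 13.8% with a lower response in B11. The excess was 1.74 for SPRED2 (SE 0.27, adjusted p = 0.000161), 1.29 for SPRY1 (SE 0.30, adjusted p = 0.00475), 1.14 for SPRY4 (SE 0.30, adjusted p = 0.0106) and 1.11 for SPRY2 (SE 0.14, adjusted p = 3.13e-05). At 1 ug/ml it was 1.64 for SPRY2 (SE 0.14, adjusted p = 7.39e-07), 1.49 for SPRED2 (SE 0.27, adjusted p = 0.000705) and 0.95 for SPRY4 (SE 0.30, adjusted p = 0.0311), where 25.9% of genes were called, 14.3% higher and 11.6% lower. SPRY1 gave 0.54 at that dose (SE 0.30, adjusted p = 0.227). The call of SPRY4 at 1 ug/ml was lost, with adjusted p of 0.0551 to 0.0758, when library B or C of B11 at 0 or 1 ug/ml or library A or C of THP1 at 0 or 1 ug/ml was left out, and it was 0.163 with plate A alone for the low dose of B11. For the step from 1 to 10 ug/ml, where 4.64% of genes were called, 2.25% higher and 2.39% lower, SPRY2 differed between lines by -0.53 (SE 0.14, adjusted p = 0.0480), a call that 23 of 30 other settings did not keep, 16 of them fits without 1 library.

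Between the lines at equal doses of doxycycline, 1 of the 4 members was called at 1 ug/ml and none at 10 ug/ml. At 1 ug/ml, SPRY2 was higher in B11, 15.9 ± 1.08 FPKM against 12.3 ± 1.04 FPKM in THP1, a ratio of 1.29 with no overlap (log2 difference 0.35, SE 0.10, adjusted p = 0.0170), in a comparison that called 29.8% of genes, 15% higher and 14.8% lower. That call was lost without library A or B of B11 at 1 ug/ml or library C of THP1 at 1 ug/ml, with adjusted p of 0.0530, 0.0677 and 0.0750, and with plate A as the single B11 library it was 0.115. SPRY1, SPRY4 and SPRED2 differed by -0.36, -0.20 and -0.22 at that dose, with adjusted p of 0.236, 0.536 and 0.431. At 10 ug/ml none of the 4 was called by limma and 0 had an unadjusted p under 0.05, where 32.4% of all genes were called, 16.4% higher and 16% lower. SPRY2 differed by -0.18 (95% interval -0.40 to 0.03), with 10.3 to 11.8 FPKM in B11 below 12.5 to 13.3 FPKM in THP1, SPRED2 by 0.03 (-0.37 to 0.43), SPRY4 by -0.02 (-0.48 to 0.44) and SPRY1 by 0.40 (-0.06 to 0.85). Between B11 at 10 ug/ml and untreated THP1, where 33.7% of genes were called, 16.7% higher and 17% lower, none of the 4 was called and 1, SPRY2, had an unadjusted p under 0.05 (log2 difference -0.24, adjusted p = 0.0750). Between the lines at 10 ug/ml, the intervals reach 0.85 for SPRY1, -0.48 for SPRY4, -0.40 for SPRY2 and 0.43 for SPRED2, so equal levels are not shown.

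SPRED1 and SPRED3 were not called in any of the 13 comparisons of a limma fit without the filter on low values. Their largest differences there were 0.87 for SPRED1 in the 10 ug/ml interaction (SE 0.38, adjusted p = 0.166) and 0.30 for SPRED3 in B11 against THP1 at 1 ug/ml (SE 0.11, adjusted p = 0.0920). In B11 at 10 ug/ml all 3 SPRED1 libraries, from 0.0674 to 0.865 FPKM, lay above the 3 THP1 libraries at that dose, from 0 to 0.0104 FPKM. That difference was 0.57 in the same fit (95% interval -0.00 to 1.15, adjusted p = 0.195).

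The 6 members together summed to 10.4 ± 1.49, 32.2 ± 0.883 and 28.8 ± 3.94 FPKM in B11 at 0, 1 and 10 ug/ml, and to 35.0 ± 4.13, 31.4 ± 3.89 and 28.996 ± 1.26 FPKM in THP1 at the same doses (SD, n = 3 each). SPRY2 and SPRED2 made up nearly all of it. SPRY2 held 48.2%, 49.4% and 39.4% of the sum in B11 at the rising doses and 39.2%, 39.3% and 44.7% in THP1. SPRED2 held 48.0%, 45.4% and 50.4% in B11 and 52.9%, 54.8% and 48.8% in THP1. The ratio of SPRED2 to SPRY2 ran from 0.639 to 1.24 in the B11 libraries at 0 ug/ml, from 0.836 to 1.06 at 1 ug/ml and from 1.16 to 1.46 at 10 ug/ml, so that the untreated range overlapped that of each dose. In THP1 it ran from 1.07 to 1.62 at 0 ug/ml, from 1.35 to 1.43 at 1 ug/ml and from 0.960 to 1.202 at 10 ug/ml. The 2 doses did not overlap in either line, with the higher ratios at 10 ug/ml in B11 and at 1 ug/ml in THP1. SPRY1 and SPRY4 took 0.861% and 2.54% of the sum in B11 with 1 ug/ml, 3.48% and 4.29% with 10 ug/ml, and 2.51% and 3.66% in untreated THP1.

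**Figure D3:**
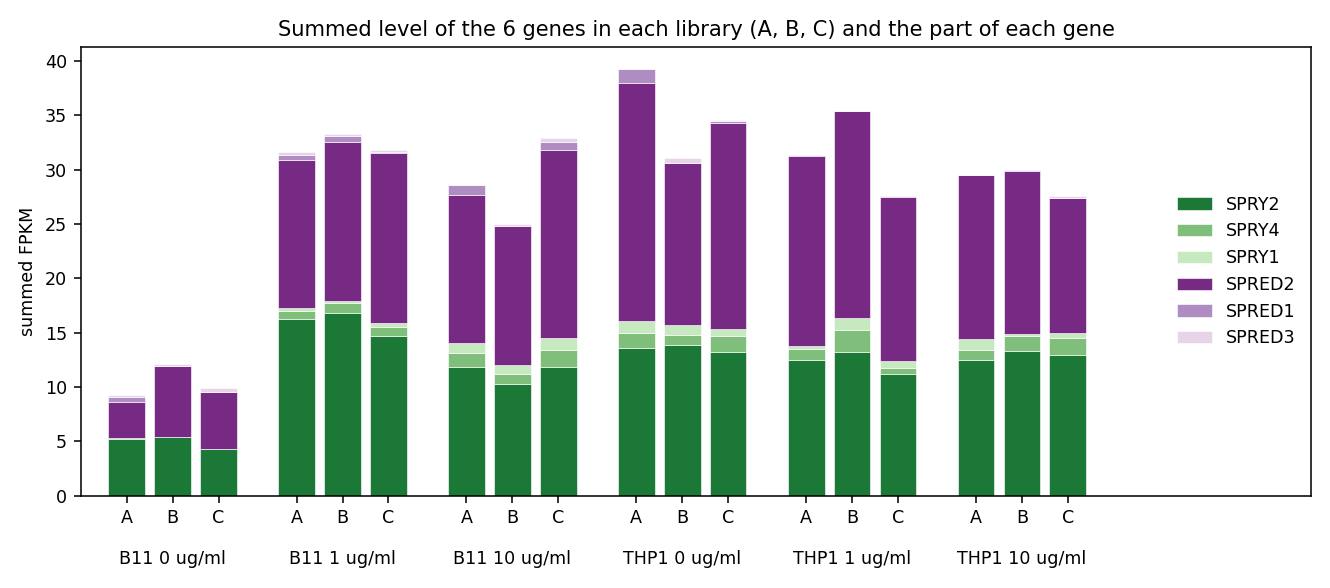
Summed FPKM of the 6 members in each library (1 bar per library, grouped by line and dose), stacked by member. The untreated B11 libraries reach 9.26 to 12.1 FPKM, and the 15 other libraries lie between 24.99 and 39.3 FPKM, with SPRY2 and SPRED2 filling most of each bar.

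Among the 18 libraries, the 10291 protein-coding genes that reached 5 FPKM in some group were ranked by Pearson r of log2(FPKM + 1) with each tested member. The libraries share groups and depth, so r is a description. SPRY2 was most like the histone gene H2AFZ (r = 0.9746), the kinase gene PKMYT1 (r = 0.970) and TCF19 (r = 0.969). SPRED2 was most like the replication checkpoint gene CLSPN (r = 0.952), the kinetochore gene NDC80 (r = 0.951) and ALYREF (r = 0.951). SPRY4 was most like TCF3 (r = 0.939), UCHL5 (r = 0.929) and KIF23 (r = 0.927), and SPRY1 less closely like TMEM263 (r = 0.873), SIKE1 (r = 0.870) and HMGXB4 (r = 0.869). PKMYT1 had 11.9 ± 3.12, 148 ± 9.94 and 97.2 ± 5.35 FPKM in B11 at 0, 1 and 10 ug/ml and 138 ± 8.34 FPKM in untreated THP1, with the high point at 1 ug/ml that SPRY2 also had. Between members, r was 0.877 for SPRY2 and SPRED2, 0.862 for SPRY4 and SPRED2, 0.808 for SPRY2 and SPRY4 and 0.518 for SPRY1 and SPRY2.

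Genes that bind or modify Sprouty and SPRED moved in both directions. The counts of this and the next lists in B11 at 10 against 0 ug/ml stand beside 21.6% higher and 21.3% lower over all genes. Of 15 tested, 6 rose and 4 fell in B11 at 10 against 0 ug/ml, with a median difference of 0.25, against -0.02 over all genes. CAV1, which encodes a scaffold of caveolae, rose by 2.42 (adjusted p = 8.02e-07) and the phosphatase gene PTPN11 by 0.75 (adjusted p = 2.97e-06), while the kinase gene MKNK1 fell by 1.27 on the log2 scale (adjusted p = 1.37e-05). NF1, the partner of SPRED, averaged 16.05 ± 2.72 FPKM in treated and 13.7 ± 3.96 FPKM in untreated B11 and was called in none of the 13 comparisons. In untreated B11 against untreated THP1, 3 partners were higher and 5 lower, with a median of -0.05, where 23.5% of all genes were higher and 23.6% lower, so these shares lay near the background. GRB2, the adaptor bound by Sprouty, was higher in B11, 609 ± 8.59 FPKM against 321 ± 6.59 FPKM in THP1 (log2 difference 0.92, adjusted p = 3.42e-06), and PTPN11 was lower, 14.9 ± 1.496 against 22.8 ± 1.51 FPKM (log2 difference -0.58, adjusted p = 3.16e-05).

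Of 9 RAS GTPase-activating protein genes tested, 2 rose and 0 fell at 10 against 0 ug/ml in B11, RASA1 by 0.36 and RASAL3 by 0.72 (adjusted p = 0.0132 and 0.0189), and the 2 higher genes are a share near the background. Of 20 components of the RAS to ERK cascade, 5 rose and 6 fell, with a median of -0.00, shares that also lay near those of all genes. The adaptor gene GAB2 fell by 1.31 on the log2 scale (adjusted p = 2.52e-06). Of 13 receptor tyrosine kinase genes tested, 2 rose and 5 fell, with a median of -0.44. FGFR1 rose by 1.10 (adjusted p = 7.21e-06), and FLT3 and KIT fell by 1.37 and 1.29 on the log2 scale (adjusted p = 1.35e-08 and 0.000197).

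The other negative feedback genes of ERK, mainly dual-specificity phosphatases, included 9 of 17 that rose and 2 that fell in B11 at 10 against 0 ug/ml, with a median of 0.48, beside 21.6% higher and 21.3% lower over all genes. DUSP6 rose by 3.04 (adjusted p = 2.35e-10), DUSP9 by 1.26 (adjusted p = 1.25e-05) and DUSP7 by 0.73 (adjusted p = 4.91e-06), whereas DUSP10, whose product acts mainly on the stress kinases, fell by 1.16 on the log2 scale (adjusted p = 7.42e-07). In untreated B11 against untreated THP1, 2 of 17 were higher and 12 lower, with a median of -0.69, against 0.02 over all genes, of which 23.5% were higher and 23.6% lower. DUSP9 averaged 1.62 ± 0.460 FPKM in untreated B11 and 6.69 ± 1.23 FPKM in untreated THP1 (log2 difference -1.56, adjusted p = 1.13e-06). At 10 ug/ml in THP1 against 0 ug/ml, 0 of 17 were called by limma and 6 had an unadjusted p under 0.05.

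Transcription factor and early genes that ERK induces rose in 14 of 15 cases in B11 at 10 against 0 ug/ml, with a median of 2.07, beside 21.6% higher over all genes. ETV4, FOSL1 and CCND1 rose by 3.19, 2.29 and 3.88 (adjusted p = 9.61e-09, 1.55e-08 and 1.75e-08), and 1 gene fell, FOSL2, by 0.78 on the log2 scale (adjusted p = 0.00202), named after its values were seen. At 10 against 1 ug/ml in B11, 6 of 15 rose, with a median of 0.42, where 5.69% of all genes were higher and 7.12% lower, among them ETV4, with 8.95 ± 1.28 against 3.51 ± 0.621 FPKM (log2 difference 1.14, adjusted p = 0.00194), and CCND1, with 17.6 ± 3.14 against 5.99 ± 1.32 FPKM (log2 difference 1.42, adjusted p = 0.00248). Without plates B and C of the 1 ug/ml B11 group, which leaves 1 library there, 5 of the 15 were called higher. The other negative feedback genes had 0 of 17 higher and 2 lower in the full fit and 0 in each direction without those plates. Against THP1 at 10 ug/ml, B11 at 10 ug/ml was higher in 12 and lower in 1 of the 15 early genes, with a median of 0.93, where 16.4% of all genes were higher and 16% lower. Of the 17 other feedback genes 4 were higher and 4 lower there. Against untreated THP1, B11 at 10 ug/ml was higher in 8 and lower in 1 of the 15 early genes, with a median of 0.73, where 16.7% of all genes were higher and 17% lower. Untreated B11 against untreated THP1 was higher in 1 and lower in 10 of the 15, with a median of -1.31. Over all genes, 23.5% were higher and 23.6% lower in that comparison. In THP1 itself, 2 of the 15 early genes were lower at 10 than at 0 ug/ml, EGR1 with a difference of -0.52 (adjusted p = 0.0494) and JUNB with one of -0.58 (adjusted p = 0.00339), where 0.923% of all genes were lower, both named after their values were seen, and 9 of the 15 had an unadjusted p under 0.05. In B11, EGR1 differed by 3.22 at 1 against 0 ug/ml and by 1.19 at 10 against 1 ug/ml (limma adjusted p = 2.70e-11 and 1.11e-05). JUNB was called in neither of these B11 comparisons. These lists were chosen with results of these data known, and no test of a list was made.

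**Figure D4:**
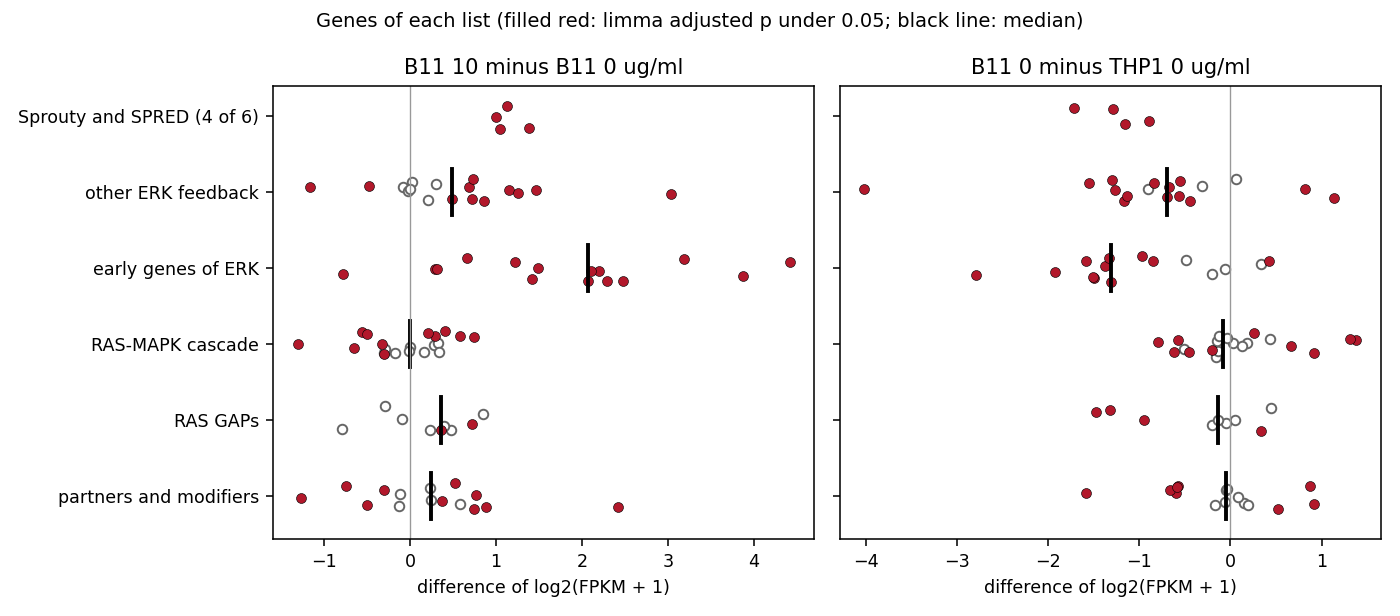
Differences in log2(FPKM + 1) of the tested genes of each list, 1 point per gene, filled where called, for B11 at 10 against 0 ug/ml (left) and untreated B11 against untreated THP1 (right), with the list median as a line except for the Sprouty and SPRED genes, of which 4 of 6 were tested. In B11 at 10 against 0 ug/ml the early genes lie highest, with a median of 2.07, and the other feedback genes have a median of 0.48.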

How the data were processed

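Total RNA of 18 plates was sequenced after RNeasy extraction and standard Illumina library preparation, per the labels' protocols. The deposited table holds 1 FPKM value per gene and library, made by the authors with HISAT2 and Cuffnorm on GRCh38, per the submitters' processing notes. Tool versions, annotation, strand and scaling are not given in the sources used. Since no header states the unit, FPKM was read from the tool and the values. It holds no counts, so no count test was run, and depth was estimated from the lowest values of genes that have 1 transcript. Symbols came from GENCODE 29, which named 57047 of 60658 IDs and left 3611 unnamed.

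The 17555 genes that reached 1 FPKM in 3 or more libraries were kept. The 6 group means were fitted to log2(FPKM + 1) by limma 3.58.1 (R 4.3.3) with an intensity trend and 12 residual degrees of freedom, for 13 comparisons, 3 of them interactions between line and dose. Calls needed a Benjamini-Hochberg adjusted p under 0.05 over all genes tested. The fit was tested on simulated data. The members and lists were chosen with earlier results of these data known. From each list, up to 4 called genes with the smallest p were eligible to be named, or the 1 to 2 most abundant where none was called; the genes most like each member were the 3 with the highest Pearson r. Some list genes are counted but not reported here by name. Replicate letters do not pair the plates. Alternatives covered the pseudocount, filter, scaling, moderation, libraries in the fit, a block for the replicate letter, and leaving out single libraries; 1, without plates B and C of the 1 ug/ml B11 group, was chosen after seeing the data. Replicate libraries correlated at r of 0.938 to 0.957 and none were identical. No batch is labelled. Plots used matplotlib 3.10.9 (Python 3.11.15).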

Additional observations from a re-analysis of the deposited data

Results flagged for a closer look

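Differences between the lines in the response to doxycycline, B11 minus THP1 in log2(FPKM + 1), passed the limma test in 8 cases. At 10 against 0 ug/ml they were 1.29 for SPRY1 (adjusted p = 0.00475), 1.11 for SPRY2 (adjusted p = 3.13e-05), 1.14 for SPRY4 (adjusted p = 0.0106) and 1.74 for SPRED2 (adjusted p = 0.000161). At 1 against 0 ug/ml they were 1.64 for SPRY2 (adjusted p = 7.39e-07), 0.95 for SPRY4 (adjusted p = 0.0311) and 1.49 for SPRED2 (adjusted p = 0.000705). At 10 against 1 ug/ml the difference was -0.53 for SPRY2 (adjusted p = 0.0480). Groups of 3 plates were not tested for outlying plates.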

How the results depend on the processing

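Over 30 alternative settings, 29 planned and 1 added after seeing the data, 1483 of 1534 member values kept their side of the threshold, 41 lost the call, 10 gained it and 0 called values changed sign. Of the 1483, 26 values that were not called changed sign. Requiring a mean of 5 FPKM left SPRY1 and SPRY4 untested, so 2 members were called in place of 4 in B11 at 10 against 0 ug/ml, in untreated B11 against untreated THP1 and in the 10 against 0 ug/ml interaction. For B11 at 10 against 1 ug/ml the count was 2 in place of 1 without an intensity trend, with the groups of the comparison alone and with protein-coding genes alone, 1 to 2 when 1 library was left out, and 0 without plates B and C of the 1 ug/ml B11 group. For B11 against THP1 at 1 ug/ml it was 0 in place of 1 under TPM scaling, with the groups alone and without those 2 libraries, and 0 to 1 when 1 library was left out. For B11 at 10 ug/ml against untreated THP1 it was 1 in place of 0 under TPM scaling. The 10 against 1 ug/ml interaction had 0 in place of 1 under pseudocounts of 0.1 and 0.5, TPM scaling, robust moderation, the groups alone and without those 2 libraries, and 0 to 1 when 1 library was left out. With the replicate letter as a block it was also 0, with an adjusted p of 0.0578 for SPRY2, and no other member's call changed under the block. A check of pairing by letter gave correlations from -0.0609 to 0.0923, which are not correlations of the levels themselves. With a pseudocount of 0.1, SPRY1 gained a call at 1 against 0 ug/ml in B11 (adjusted p = 0.0154) and in the interaction at that dose (adjusted p = 0.0406). The cause of these changes was not tested, apart from the 5 FPKM filter.

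Counts over all genes moved by more than 1.5 times in 7 comparisons. Without plates B and C of the 1 ug/ml B11 group, a fit with 1 library in that group and its spread taken from the other groups, 4053 genes in place of 6516 were called for 1 against 0 ug/ml in B11, 601 in place of 2249 for 10 against 1 ug/ml, 2687 in place of 5231 for B11 against THP1 at 1 ug/ml and 230 in place of 814 for the 10 against 1 ug/ml interaction. For 10 against 1 ug/ml in B11 the count was 1478 when plate C of the low dose was left out and 1475 when plate C of the high dose was. For the interaction it was 495 without library C of B11 at 1 ug/ml. Within THP1 it ran from 46 to 220 around 179 at 10 against 0 ug/ml, from 0 to 23 around 2 at 1 against 0 ug/ml and from 11 to 113 around 52 at 10 against 1 ug/ml. For 1 against 0 ug/ml in THP1, 1 of 2 calls was higher, against 0 of 1 under either other scaling.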
